A study of Rattus norvegicus with 4 samples.

Results

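Phgdh, Psat1, Psph and Asns, the genes of serine and asparagine synthesis, were followed in irradiated rat footpad skin. The members were the rows of the gene tables whose symbol was one of these 4, and each was found once, among 18957 rows in all. They were chosen for a pattern already seen in these counts, so their own levels are given as a description without a test. Skin was taken from the hindlimb footpad of outbred Sprague Dawley rats on days 0, 3, 6 and 9. Per the protocol, a 9 MeV electron beam gave 10 Gy at 500 cGy/min on each of days 1, 2, 4 and 5. By that protocol the day 3 skin had received 2 irradiations, and the day 6 and day 9 skin 4, taken 1 and 4 days after the last. The day 0 skin came before any, although its description names day 1 as the day of collection, and each later description mentions only 1 day of irradiation. Groups were taken from the titles, and nothing in the labels gives the sex or the number of animals behind a library.

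Each day was measured with 1 library, so no value has a replicate error, and every 95% interval covers counting error alone. Libraries were lists of 21-base tags that begin at a CATG site near the 3′ end of a transcript. They held 1952921 to 1982608 counts assigned to genes. Levels are CPM, counts per 1000000 gene counts after scaling with the TMM method of edgeR. Keratins and collagens were present in every library, as the label of the tissue implies, but 6 of the 7 skeletal muscle markers with a row were at 0 on day 6, and none of them on days 0, 3 and 9. In bulk skin, fewer cells of a type and less RNA per cell cannot be told apart.

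Cells make serine from a glycolytic intermediate. Phosphoglycerate dehydrogenase (Phgdh) oxidises 3-phosphoglycerate, phosphoserine aminotransferase (Psat1) adds an amino group taken from glutamate, and phosphoserine phosphatase (Psph) releases serine. Serine feeds glycine, folate one-carbon units, cysteine, sphingolipids and phosphatidylserine. Asparagine synthetase (Asns) makes asparagine from aspartate with glutamine as the nitrogen donor. All of these genes are known in mammalian cells as targets of ATF4, the transcription factor that responds to amino acid shortage and other stresses through phosphorylation of eIF2.

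Nearly all counts of each gene came from 1 tag, the one nearest the 3′ end. The leading tags are shown because every value below rests on them, with the CATG anchor in capitals.
Phgdh: CATGtttctgaggctttccag
Psat1: CATGtgttagtgttttcgatt
Psph: CATGgagagttttatattctg
Asns: CATGgaaagaaataaaagtat
They made up 98.2% of the copies of Phgdh over the 4 libraries, 98.1% of those of Psat1, 98.6% of those of Psph and 98.1% of those of Asns. No member lost its leading tag in any library, and each tag stood under 1 gene. Tags that differ from the leading tag by 1 base held at most 5 copies in a library, counted in the full tag lists for any of the members, so no second form of a tag took over on any day. RefSeq names 6 pseudogenes of Phgdh and 1 of Psat1. None of these had a row in the tables, and whether tags of a pseudogene were counted under the parent gene was not tested.

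Phgdh, which catalyses the committed step, had the widest range of the members as a ratio of its highest to its lowest level. Its counts were 148, 84, 132 and 20 on days 0, 3, 6 and 9, or levels of 73.9, 41.7, 67.8 and 10.5 CPM. The day 9 library was the low one, with an interval of 6.4 to 16.2 CPM that overlapped none of the others, and day 3 stood between it and the other two. Against day 0, Phgdh was 6.91-fold lower on day 9 (4.40 to 11.9). Of the 5345 genes with at least 50 counts in either of these libraries, 23 had a lower ratio. Against day 6 it was 6.34-fold lower on day 9 (4.03 to 10.9), and 6 of 5127 genes had a lower ratio. The levels of days 6 and 0 differed by less than counting error, at a ratio of 0.919 (0.721 to 1.17). On day 3 Phgdh stood at 0.566 of its day 0 level (0.427 to 0.743), short of a 2-fold difference, and on day 6 it was 1.62 times its day 3 level (1.23 to 2.16).

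Psat1, the aminotransferase of the pathway, was flat until the last collection. Its counts were 282, 259, 242 and 113 on days 0, 3, 6 and 9, or levels of 141, 129, 124 and 59.2 CPM. The first 3 libraries overlapped in their intervals and the day 9 library lay below all of them. It was 2.37-fold lower on day 9 than on day 0 (1.91 to 2.98), and 2.10-fold lower on day 9 than on day 6 (1.67 to 2.65). The ratios of day 3 and day 6 to day 0 were 0.914 (0.769 to 1.09) and 0.884 (0.741 to 1.05).

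Psph, the phosphatase that releases serine, was low a collection earlier. Its counts were 57, 47, 19 and 20 on days 0, 3, 6 and 9, or levels of 28.5, 23.3, 9.76 and 10.5 CPM. The libraries fell into a higher pair, days 0 and 3, and a lower pair, days 6 and 9, whose intervals did not meet. It was 2.87-fold lower on day 6 than on day 0 (1.71 to 5.19) and 2.67-fold lower on day 9 than on day 0 (1.61 to 4.77). Between days 9 and 6 the ratio was 1.07 (0.544 to 2.13), and between days 3 and 0 it was 0.822 (0.545 to 1.23). With 19 and 20 counts in the low libraries, a 2-fold higher level on day 9 than on day 6 lies inside the counting interval.

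Asns, the asparagine synthetase, passed a 2-fold difference in none of the comparisons. Its counts were 294, 235, 310 and 225 on days 0, 3, 6 and 9, or levels of 147, 117, 159 and 118 CPM. Days 0 and 6 were the higher pair and days 3 and 9 the lower one, and the day 0 interval overlapped all others. Against day 0 the ratios were 0.796 on day 3 (0.667 to 0.947), 1.09 on day 6 (0.922 to 1.28) and 0.804 on day 9 (0.672 to 0.959). On day 6 Asns was 1.36 times its day 3 level (1.15 to 1.62), and on day 9 it was 0.740 of its day 6 level (0.621 to 0.882).

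**Figure D1:**
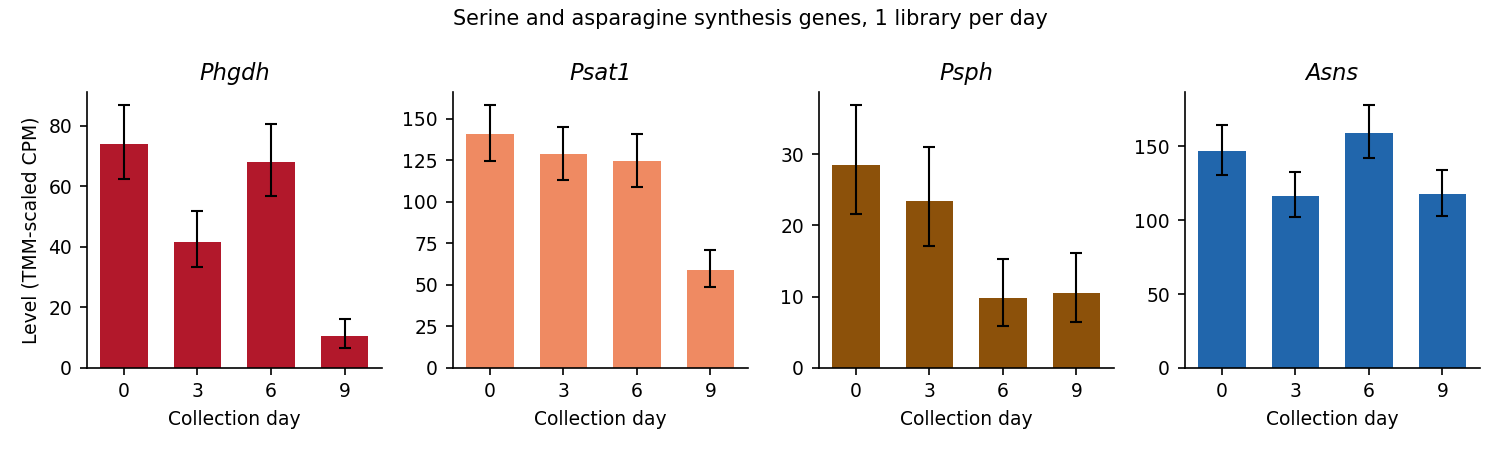
Level of each gene (CPM of TMM-scaled counts, vertical axis from 0, own scale per panel) by collection day, 1 library per day; error bars are exact 95% Poisson intervals of the count. Phgdh and Psat1 are lowest on day 9, at 10.5 and 59.2 CPM, Psph is low on days 6 and 9, and Asns stays between 117 and 159 CPM.

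Genes were called higher or lower by a rule of size, with no test: the scaled counts had to differ 2-fold or more, the library with more had to hold 50 counts, and the 95% interval had to leave out 1. On day 9 against day 0, 3 of the 4 members were lower by this rule (Phgdh, Psat1 and Psph), where 10.5% of all genes with enough counts were lower. On day 6 against day 0, 1 of 4 was lower (Psph), where 13.1% of genes were, and none was higher, where 7.48% were. On day 3 against day 0 none passed, where 7.86% of genes were lower and 8.54% higher. Between days 9 and 6, Phgdh and Psat1 were lower, where 4.37% of genes were, and Psph had under 50 counts in both libraries. Between days 6 and 3 none was higher or lower, where 2.84% of genes were higher and 6.74% lower, 9.59% in either direction, again with Psph below the count floor. The members were picked from these comparisons, and the comparisons share libraries, so their counts describe the choice and nothing is read from the shares. In particular, the calls of day 9 against day 0 and of day 9 against day 6 rest on the same day 9 library. They are not separate observations.

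**Figure D2:**
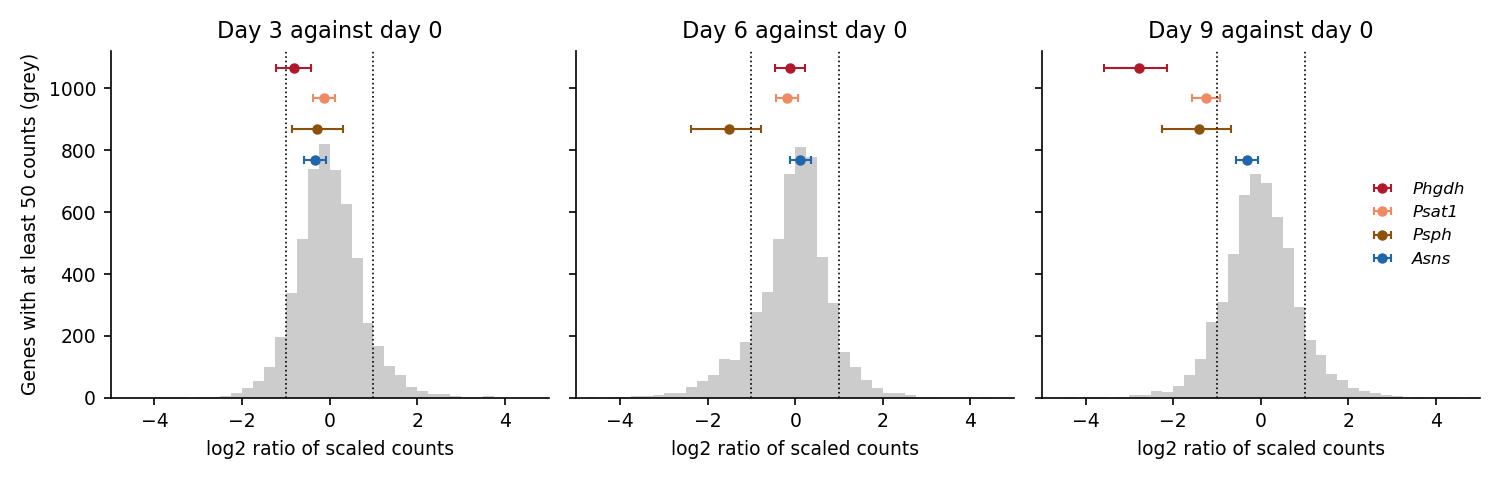
Histograms of the log2 ratio of scaled counts for all genes with 50 counts or more in either library (grey, number of genes on the vertical axis), with the 4 members above them as points with 95% counting intervals; dotted lines mark 2-fold. On day 9 against day 0 Phgdh lies at -2.79, Psph at -1.42, Psat1 at -1.25 and Asns at -0.32, while on day 6 only Psph, at -1.52, lies beyond 2-fold.

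The serine genes were also set against Asns within each library, since such a ratio does not depend on how libraries were scaled. Each transcript is counted through a single site and not by its length, and only the differences between days are described. The count of Phgdh over that of Asns was 0.503, 0.357, 0.426 and 0.0889 on days 0, 3, 6 and 9. The intervals were 0.0533 to 0.141 on day 9 and 0.410 to 0.615 on day 0, so the day 9 library stood apart from the other three. Psat1 over Asns was 0.959, 1.10, 0.781 and 0.502, lowest on day 9 (0.397 to 0.632). Psph over Asns was 0.194, 0.2, 0.0613 and 0.0889, with both late libraries below both early ones. The enzymes of the pathway did not keep a fixed ratio to each other either. Phgdh over Psat1 was 0.525, 0.324, 0.545 and 0.177, and Psph over Psat1 was 0.202, 0.181, 0.0785 and 0.177. The summed level of Phgdh, Psat1 and Psph was 243, 194, 202 and 80.2 CPM on days 0, 3, 6 and 9, which is 3.03-fold lower on day 9 than on day 0 (2.52 to 3.66).

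**Figure D3:**
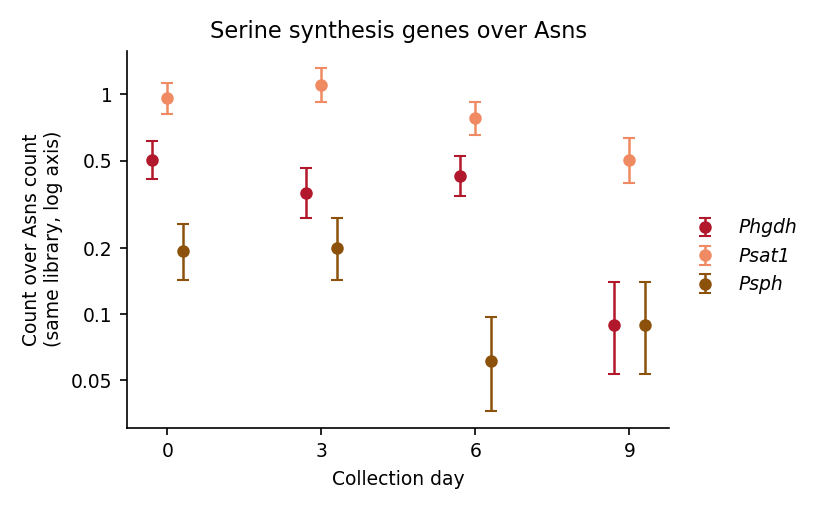
Count of Phgdh, Psat1 and Psph divided by the count of Asns in the same library (vertical log axis) by collection day, with 95% intervals for counting error. On day 9 Phgdh and Psph both stand at 0.0889 and Psat1 at 0.502, against 0.503, 0.194 and 0.959 on day 0.

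By likeness of profile over the 4 libraries, each member had genes outside the set nearer to it than any other member. A search over many genes and few libraries makes this likely for any gene, so nothing is read from it. Likeness was the Euclidean distance between log2 levels, each gene centred on its own mean, over 2260 genes with an established symbol and a mean of at least 100 scaled counts. Genes nearest to Phgdh were Pdcd4 at 0.754 (counts of 2089, 704, 1126 and 293), Aldh3a1 at 0.801 (304, 355, 307 and 63) and Gcat at 0.916 (287, 131, 147 and 54). The member nearest to Phgdh was Psat1 at 1.29, with 28 genes nearer. To Psph it was Psat1 at 1.07, with 272 genes nearer. Psat1 and Asns lay 0.854 apart, with 441 genes nearer to Psat1 and 1497 nearer to Asns. Nearest to Psat1 were Mpdu1 at 0.143, Slc27a1 at 0.182 and Ngef at 0.182, and nearest to Psph were Pld3 at 0.180, Mvk at 0.370 and Tmbim6 at 0.391. Asns was nearest to Elf1 at 0.0223, Cib1 at 0.0465 and Tnpo2 at 0.0561. A distance over 4 libraries is a description, and genes with few counts, such as Psph, are placed less exactly.

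Of the one-carbon and glycine list, Gcat was lower and Tdh and Ggh were higher on day 9 than on day 0. Gcat, the mitochondrial ligase that makes glycine from the product of threonine dehydrogenase, had 287, 131, 147 and 54 counts on days 0, 3, 6 and 9. It was 5.03-fold lower on day 9 than on day 0 (3.78 to 6.90). Tdh, threonine dehydrogenase, had 36, 93, 148 and 144 counts and was 4.15-fold higher on day 9 (2.90 to 6.23). Both also passed the rule on day 3 against day 0, at ratios of 0.455 for Gcat (0.367 to 0.560) and 2.55 for Tdh (1.73 to 3.89). Ggh, a hydrolase that shortens folate polyglutamates, had 89, 178, 202 and 399 counts and was 4.69-fold higher (3.73 to 5.99). These were the 2 higher and 1 lower among the 5 one-carbon and glycine genes with enough counts, of 17 with a row. For all genes 10.7% were higher and 10.5% lower. The median log2 ratio was -0.13 over 14 list genes that averaged 10 counts or more, beside 0.00 over the 9876 genes that did so in the whole tables. The same filter and comparison value apply to the list medians below. Mthfd2, the mitochondrial folate enzyme, had 10, 21, 27 and 35 counts, too few for the rule, at a ratio of 3.54 on day 9 (1.78 to 8.32). Aldh1l1, a formyltetrahydrofolate dehydrogenase, had 36, 60, 12 and 57 counts and did not pass against day 0, but was 4.69-fold higher on day 9 than on day 6 (2.57 to 9.92). Shmt2, Mthfd1 and Gldc were looked for but had no row under their symbols, so they were not analysed here.

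Of 6 genes that use serine and had enough counts on day 9 against day 0, 1 was higher and 1 lower, where 10.7% of all genes were higher and 10.5% lower. Both were in the Serinc family of membrane proteins linked to serine incorporation into lipids. Serinc3 had 39, 36, 35 and 200 counts and was 5.33-fold higher (3.80 to 7.79), and Serinc2 had 290, 88, 108 and 126 counts and was 2.19-fold lower (1.77 to 2.73). Sptlc1, a subunit of the enzyme that joins serine to a fatty acid, stood at 1.30 (0.991 to 1.71), and Ptdss1, phosphatidylserine synthase, at 1.26 (0.976 to 1.62). The list median was 0.26 over 8 genes.

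In the aspartate, glutamate and glutamine list, 2 genes were lower and 1 higher among 10 with enough counts on day 9 against day 0. The shares over all genes were 10.5% lower and 10.7% higher. Gpt, alanine aminotransferase, had 298, 111, 104 and 58 counts and was 4.86-fold lower on day 9 (3.68 to 6.60). Ass1, which joins citrulline and aspartate, had 341, 98, 101 and 61 counts and was 5.29-fold lower (4.05 to 7.11). Unlike Psat1, both were already lower by the rule on day 3, by 2.69-fold for Gpt (2.16 to 3.39) and 3.49-fold for Ass1 (2.79 to 4.42). Gfpt2, which uses glutamine for hexosamines, was 3.09-fold higher on day 9 (1.82 to 5.71). Aspg, an asparaginase that breaks asparagine down, had 35, 51, 62 and 60 counts and stood at 1.79 (1.17 to 2.81), short of the rule. The list median was -0.17 over 15 genes.

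Of the proline and arginine list, 3 genes were lower and 1 higher among 5 with enough counts on day 9 against day 0. Over all genes, 10.5% were lower and 10.7% higher. Oat, ornithine aminotransferase, was 2.5-fold lower (1.83 to 3.49), with 145, 63, 33 and 55 counts. Srm, spermidine synthase, was 2.5-fold lower (2.00 to 3.15), with 289, 83, 38 and 110 counts, so both were lowest on day 6. Pycrl, a pyrroline-5-carboxylate reductase, was 2.12-fold lower (1.52 to 3.04). Arg1, which splits arginine, had 12, 58, 71 and 383 counts and was 32.2-fold higher (19.0 to 65.4). The list median of -0.90 rests on 7 genes.

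Among reported ATF4 targets, 3 were higher and 1 lower of 18 with enough counts on day 9 against day 0, where 10.7% of all genes were higher and 10.5% lower, and the median was 0.12 over 22 genes. Atf3, a stress transcription factor, had 43, 18, 21 and 145 counts and was 3.51-fold higher (2.5 to 5.10). Sesn2, sestrin 2, was 3.49-fold higher (2.07 to 6.4), and Hmox1, haem oxygenase 1, was 4.26-fold higher (2.79 to 6.91). Nfil3, a basic leucine zipper factor, was 2.11-fold lower (1.36 to 3.39). With a prior count of 5 in place of 0.5, 0 genes of the list were lower. Chac1, which degrades glutathione, had 102, 45, 64 and 101 counts, 2.26-fold lower on day 3 (1.59 to 3.31) and with a ratio of 1.04 on day 9 (0.781 to 1.38). Ddit3, the CHOP transcription factor, had 35, 37, 24 and 45 counts, and Trib3, a pseudokinase induced with it, had 22, 17, 3 and 11, both below the count floor. Atf4 was looked for but had no row under its symbol, so it was not analysed here. Of 7 measured eIF2 and eIF2B genes with enough counts, none was higher or lower on day 9 against day 0. Eif2s1, the subunit that stress kinases phosphorylate, stood at 1.84 (1.41 to 2.42), Eif2s2 at 1.28 (1.16 to 1.41), Eif2b2 at 0.628 (0.485 to 0.807) and Eif2b5 at 0.693 (0.481 to 0.986).

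Of 17 cytosolic aminoacyl-tRNA synthetases with enough counts, which charge tRNAs with amino acids, 1 was lower and none higher on day 9 against day 0. The median over 19 was -0.49, and 10.5% of all genes were lower and 10.7% higher. Vars, for valine, was the lower one, at 2.98-fold (2.29 to 3.95). Sars, which charges serine, had 201, 134, 86 and 108 counts, 2.26-fold lower on day 6 (1.76 to 2.96) and with a ratio of 0.565 on day 9 (0.442 to 0.716). Nars, which charges asparagine, had 288, 313, 273 and 338 counts and stood at 1.23 on day 9 (1.05 to 1.45); it was named after its values were seen, as the partner of Asns. Qars, for glutamine, stood at 0.519 (0.450 to 0.597) and Farsb, for phenylalanine, at 1.94 (1.52 to 2.52), both short of 2-fold.

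Among amino acid transporters at the cell surface, 1 was higher and 2 lower of 9 with enough counts on day 9 against day 0. Their median was 0.22 over 16, and 10.7% of all genes were higher and 10.5% lower. Slc7a11, the cystine carrier, had 8, 12, 19 and 98 counts and was 12.1-fold higher (6.28 to 30.6). Slc6a9, the glycine carrier GLYT1, had 131, 28, 43 and 22 counts and was 5.57-fold lower (3.59 to 9.36). Slc7a5, a carrier of large neutral amino acids, had 93, 60, 67 and 36 counts and was 2.44-fold lower (1.66 to 3.72). Slc1a5, which carries glutamine and serine, stood at 1.78 (1.13 to 2.89). Slc1a4, a carrier of neutral amino acids that include serine, had 64, 83, 113 and 52 counts; it was named after its values were seen. Against day 0 it stood at 1.81 on day 6 (1.33 to 2.51) and 0.854 on day 9 (0.580 to 1.25), and it was 2.12-fold lower on day 9 than on day 6 (1.52 to 3.02).

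**Figure D4:**
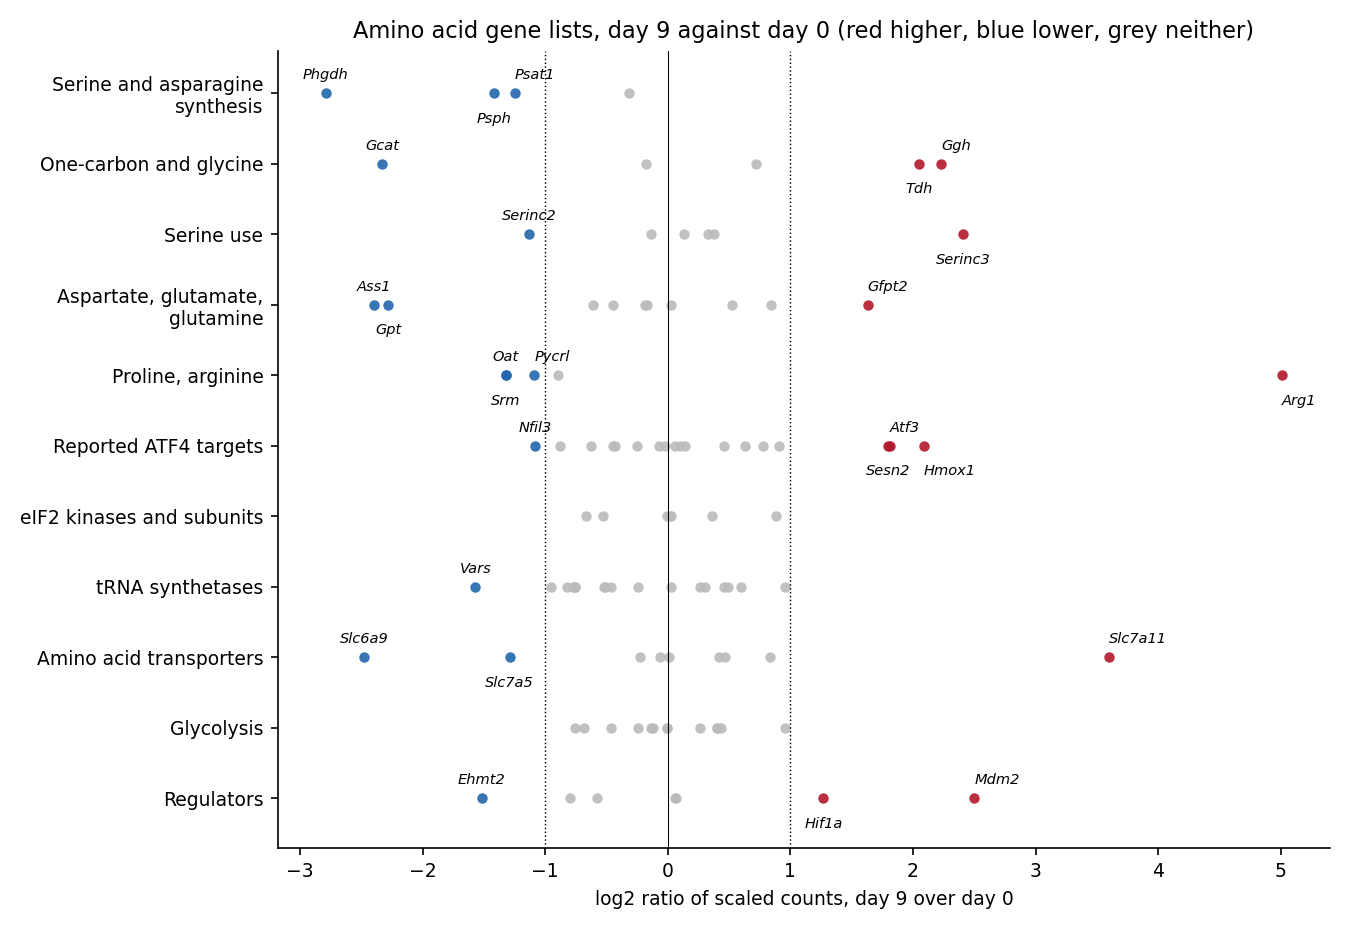
log2 ratio of scaled counts of day 9 over day 0 for every listed gene with 50 counts or more in either library, one row of points per list; red points are higher and blue points lower by the size rule, grey points neither, and dotted lines mark 2-fold. The serine genes, chosen for a pattern seen in these counts, lie at -2.79, -1.42 and -1.25. The 13 glycolytic genes and the 7 eIF2 genes hold no point beyond 2-fold, where 10.7% of all genes were higher and 10.5% lower.

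Glycolysis, which supplies 3-phosphoglycerate, had no gene past the rule among 13 on day 9 against day 0, where 10.7% of all genes were higher and 10.5% lower. The median was -0.12 over 15. Pgk1, which makes 3-phosphoglycerate, had 1582, 1663, 1360 and 1499 counts and stood at 0.995 (0.926 to 1.07), and Pgam1, which draws on it, had 853, 906, 937 and 1098 counts and stood at 1.35 (1.23 to 1.48); both were named after their values were seen, for their place beside Phgdh. Gapdh had 2515, 2148, 1537 and 2377 counts and stood at 0.629 on day 6 (0.590 to 0.671) and 0.992 on day 9 (0.938 to 1.05). On day 9 Ldha, lactate dehydrogenase, stood at 1.94 (1.84 to 2.04), Pfkp at 0.591 (0.520 to 0.671) and Hk1 at 0.626 (0.5 to 0.780). The muscle enolase Eno3 had 364, 280, 0 and 252 counts and stood at 0.727 on day 9 (0.616 to 0.856). The list was not flat over the series. On day 6 against day 0, 3 of 13 genes were lower (Pfkm, Eno3 and Ldhb) and 0 higher, where 13.1% and 7.48% of all genes were, with a median of -0.43. On day 9 against day 6, 4 of 13 were higher (the same 3 and Tpi1) and 0 lower, where 10.0% and 4.37% of all genes were, with a median of 0.36. Eno3 is also a skeletal muscle marker, and those markers summed to 2069 CPM on day 0, 4.11 on day 6 and 3847 on day 9. The part of muscle in these differences was not tested. Actb, actin, had 3848, 1774, 876 and 2316 counts and stood at 0.459 on day 3 (0.433 to 0.485), 0.235 on day 6 (0.218 to 0.252) and 0.632 on day 9 (0.6 to 0.665), each against day 0.

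Of 7 measured regulators linked to serine synthesis genes, 2 were higher and 1 lower on day 9 against day 0, with a median of 0.06. The shares over all genes were 10.7% higher and 10.5% lower. Ehmt2, the histone methyltransferase G9a reported to support these genes in human cancer cells, had 112, 36, 30 and 37 counts and was 2.86-fold lower (1.97 to 4.30). It was also 3.10-fold lower on day 3 (2.13 to 4.69). Nfe2l2, which encodes NRF2, had 268, 250, 254 and 146 counts and stood at 0.573 on day 9 (0.464 to 0.702), short of 2-fold. Hif1a had 156, 179, 156 and 358 counts and was 2.40-fold higher (1.99 to 2.93). Mdm2, the p53 antagonist, had 30, 129, 125 and 164 counts and was 5.66-fold higher (3.87 to 8.78). On day 6 Mdm2 was already 4.2-fold higher than on day 0 (2.9 to 6.6).

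**Figure D5:**
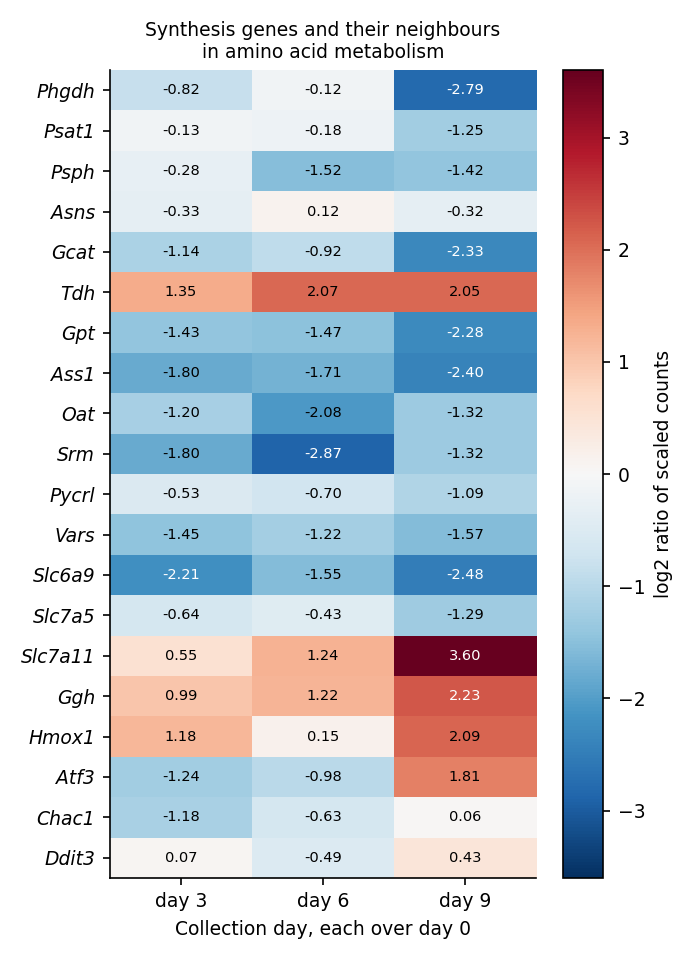
log2 ratio of scaled counts of days 3, 6 and 9 over day 0 (columns, colour scale and printed values) for the members and 16 other genes. These were picked by hand from the gene lists and include stress genes such as Hmox1, Atf3 and Ddit3. Gpt, Ass1, Srm, Vars and Slc6a9 are at -1.43 or below on day 3, where Phgdh, Psat1 and Psph lie between -0.82 and -0.13.

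Promoters of Phgdh and Psat1, the members lowest on day 9 alone, are shown from RefSeq (GRCr8, 250 bases before to 50 after the gene start, coding strand), with motif matches in capitals. All 4 members had an entry. The Phgdh window is chr2:188624740-188625039, minus strand, and the Psat1 window is chr1:222645359-222645658, minus strand.
Phgdh: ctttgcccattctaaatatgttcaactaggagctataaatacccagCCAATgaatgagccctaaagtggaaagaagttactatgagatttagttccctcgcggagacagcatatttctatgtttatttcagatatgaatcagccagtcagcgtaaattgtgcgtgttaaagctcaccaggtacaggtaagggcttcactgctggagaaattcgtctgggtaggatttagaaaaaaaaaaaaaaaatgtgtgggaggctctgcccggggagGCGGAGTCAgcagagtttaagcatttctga
Psat1: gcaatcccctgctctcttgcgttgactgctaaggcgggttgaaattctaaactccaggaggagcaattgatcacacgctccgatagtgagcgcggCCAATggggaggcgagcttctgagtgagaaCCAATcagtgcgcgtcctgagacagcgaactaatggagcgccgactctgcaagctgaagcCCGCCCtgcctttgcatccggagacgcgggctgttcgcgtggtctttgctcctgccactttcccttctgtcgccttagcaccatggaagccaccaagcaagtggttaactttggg
Both strands were searched for the C/EBP-ATF element TGATGNAA, the antioxidant response core TGACNNNGC, the CCAAT box CCAAT, the GC box GGGCGG and the E-box CACGTG. These are held by 3.98, 12.1, 37.5, 33.1 and 6.42% of 33469 promoter windows of the same length. Phgdh held 1 CCAAT box and 1 antioxidant response core, and Psat1 held 2 CCAAT boxes and 1 GC box. Psph held 1 GC box, and Asns held 3, of which 2 overlap each other. No window of the 4 members held TGATGNAA or CACGTG. Only 1 window at 1 annotated start was searched per member, so absence there does not mean that the gene lacks the element. Matches of these short letters are descriptions of the window and no evidence that a factor binds there.

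Marker genes of other cell types also differed between the libraries. Stress keratinocyte markers, 5 of 8 with a row, summed to 654, 304, 258 and 4664 CPM on days 0, 3, 6 and 9. They were highest in the library where Phgdh and Psat1 were lowest, and Krt16 was the one at 0 on days 0 and 3. Basal keratinocyte markers, 6 of 7, summed to 1687, 1501, 1817 and 1560 CPM, and suprabasal ones, 5 of 8, to 18005, 14238, 25419 and 18791 CPM. Proliferation markers, 7 of 7, summed to 226, 130, 359 and 157 CPM, and fibroblast markers, 7 of 7, to 8445, 31622, 24647 and 23794 CPM. Skeletal muscle markers, 7 of 8, summed to 2069, 4187, 4.11 and 3847 CPM, and sweat gland markers, 5 of 5, to 235, 414, 62.2 and 273 CPM. Both lists were lowest on day 6. Macrophage markers, 5 of 6, summed to 153, 383, 328 and 258 CPM, and adipocyte markers, 4 of 5, to 92.8, 511, 175 and 341 CPM. Red cell markers, 3 of 4, summed to 17.5, 759, 53.4 and 313 CPM, and endothelial markers, 5 of 5, to 133, 152, 215 and 136 CPM. The part of these cell types in the levels of the members was not tested.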

How the data were processed

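Digital gene expression tags were counted in 4 libraries, 1 for each collection day. Per the file headers, the authors summed tag copies into a whole-number count per gene. Their second column, headed TPM, held deposited CPM values, counts per 1000000 tags seen at least 2 times, without scaling by transcript length, and 0 rows departed from this (tolerance 0.006 CPM plus 1 ppm). The assembly, per the submitters' processing notes, is Rnor 6.0. The aligner is not given in the sources used here. The other deposited files list 1 tag a line, 3360368 to 3592019 in a library.

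Counts were joined by gene identifier. Scaling used TMM factors of edgeR 4.0.16, between 0.978 and 1.02. Ratios used a prior count of 0.5 and 95% Clopper-Pearson intervals, levels 95% Poisson intervals. With 1 library a day edgeR and DESeq2 cannot estimate a spread, so no test across samples was made. On counts simulated for day 9 against day 0 over 18957 genes, the size rule called 2 of 50 genes changed 1.5-fold, 49 of 50 changed 2.5-fold and 50 of 50 at both 4-fold and 8-fold. It also called 1 of 18757 unchanged genes. In the measured libraries, 5345 of 18957 genes reached the floor of 50 counts on day 9 or day 0. A gene under the floor cannot be called, so the floor alone keeps most unchanged genes from a call. The called numbers were not split by count, so nothing is read from them for genes with few counts, such as Psph. The simulation held counting error only, with no spread between animals, so the called numbers are not false-call rates for the days. Named genes were the members, the up to 4 genes of each list furthest from a ratio of 1 on day 9 with at least 50 counts, a fixed set that includes Ddit3, Trib3, Chac1, Mthfd2, Gapdh, Actb and Nfe2l2, and the 3 genes most alike each member. Nars, Slc1a4, Pgk1 and Pgam1 fall outside this rule. Members, lists and tests were chosen with earlier results of these data known. Alternatives covered scaling, prior count, the authors' value, the leading tag alone, the fold, the count floor and the interval (SciPy 1.17.1, DESeq2 1.42.0).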

Additional observations from a re-analysis of the deposited data

How the results depend on the processing

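All 140 member ratios recomputed under other scalings, a prior count of 5, the authors' value plus 1 or the most abundant tag alone stayed inside their counting intervals. Under these 7 alternatives each member kept its side of the size rule in all 5 comparisons. Calls of the members were not recomputed at other folds or count floors. Phgdh was 1.77-fold lower on day 3 than on day 0 and 1.62-fold higher on day 6 than on day 3, both beyond 1.5-fold. With at most 148 and 57 counts, Phgdh and Psph lie under a floor of 200 counts. Counts of genes past the rule depended on its limits. For days 3, 6 and 9 against day 0, day 6 against day 3 and day 9 against day 6, in this order, higher genes numbered 456, 396, 571, 145 and 515, and lower genes 420, 694, 560, 344 and 224. With at least 10 counts the higher genes numbered 1018, 882, 1183, 425 and 1207 and the lower ones 899, 1480, 1134, 961 and 600. With at least 200 counts they numbered 147, 127, 201, 39 and 165 higher and 125, 193, 152, 101 and 53 lower. With no count floor they numbered 1196, 1030, 1348, 517 and 1374 higher and 1032, 1692, 1286, 1133 and 724 lower. At 1.5-fold they numbered 951, 959, 1150, 540 and 927 higher and 1073, 1177, 1139, 725 and 760 lower. For day 6 against day 3, higher genes numbered 96 when scaled to all tags seen at least 2 times and 84 with the authors' value, both of which move the median log2 ratio of all genes from 0.02 to -0.12 and -0.11. Of 400 recomputed list medians, 1 left the 95% order-statistic interval of the original: amino acid transporters on day 9 against day 6 stood at -0.06, and at -0.89 over genes that averaged 50 counts or more. List counts moved past 1.5 times in 21 of 600 cases, all between counts of 0, 1 and 2. No paired analysis was possible because each day has 1 library and the labels give no replicate numbers. No replicate could be left out for the same reason. Levels near 20 counts, as for Phgdh on day 9 and Psph on days 6 and 9, have the widest intervals.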
